A study of Rattus norvegicus with 2 samples.

Results

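Kinases transfer a phosphate group, usually from ATP, to a protein, a lipid or a small metabolite. Protein kinases relay signals from receptors, calcium and cyclic nucleotides to the cytoskeleton, transcription and the cell cycle, and phosphatases reverse them. In mesenchymal stromal cells they carry growth factor, cytokine and adhesion signals and set contractility.

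The genes described here are those whose deposited name holds the word kinase. Names that also hold receptor, inhibitor or anchor were left out, as were rows without a rat gene symbol, genes annotated to the defence response, solute carriers, and Mylk, Hk1, Pfkm, Akt2 and Trib3. This left 50 of 2325 listed genes, out of 65 with kinase in the name. The rule reads names, so not all 50 are kinases. Here 41 are counted as kinases, including the pseudokinase Vrk3 and the scaffold Cask, and 9 as other proteins. Of these 9, Prkar1a, Prkar1b, Pik3r2 and Pik3r3 are regulatory subunits, and Magi3 is a scaffold. The others are a pseudokinase adaptor (Strada), a protein named as kinase activator-like (Mobkl2a), a ubiquitin ligase subunit (Skp2), and Plau. Plau is urokinase, a protease that activates plasminogen, and entered because its name contains the letters of kinase.

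RNA sequencing compared 2 libraries of bone marrow mesenchymal stem cells from Sprague-Dawley rats, at passage 3 to 5. Untransfected cells served as the negative control. The second library was made 10 days after transfection with Pdx1 and Ngn3, transcription factors of the pancreas and of its endocrine lineage. The control did not go through transfection, so the procedure and the introduced factors cannot be told apart. The deposited table is limited to genes that the authors had selected for differing 2-fold or more. All of them also had a low deposited false discovery rate. Genes with few reads could thus be listed only where their change was large. Other genes were not analysed here.

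Each group has 1 library, so no difference below has a replicate check. Intervals are exact 95% intervals that cover counting error alone. Reads amplified by PCR and carrying no molecular identifier may be copies of 1 molecule. The untransfected library held 7800831 reads and the transfected library 7415094, as implied by the deposited counts, lengths and RPKM (reads scaled by gene length and by the library total). Pdx1 had 0 and 565 reads in the untransfected and transfected library, in the direction of the labels. It was the only one listed of 11 pancreatic endocrine markers, which included Neurog3, the gene of Ngn3. The second factor could therefore not be checked here. Of 8 mesenchymal stromal markers, 4 were listed, Vcam1 higher and Thy1, Itgb1 and Alcam lower. Of 8 markers of blood cells 2 were listed, at a summed level of 9.22 and 3.34 RPKM, and they went opposite ways. Cd74 had 96 and 5 reads (18.3-fold lower) and the macrophage marker Cd68 had 5 and 26 reads (5.47-fold higher). In such bulk samples, fewer cells of a type and less RNA per cell cannot be told apart.

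A gene is called higher or lower where its reads, divided by the library total, differed at least 2-fold and the interval excluded no change. In the transfected library 28 of the 50 genes were higher and 22 were lower. Over all 2325 listed genes 63.5% were called higher and 36.5% lower, and over the 1665 with a rat gene symbol 61% and 39%. Every listed gene was selected for change, so that all 50 are called says nothing about kinases. By library totals 56% of the 50 were higher. The median change was 2.68-fold among the 28 higher genes and 3.19-fold among the 22 lower ones, against 3.41-fold and 3.10-fold over the table.

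Changes of 4-fold or more were found in 6 higher and 4 lower genes. Over the table, 26.5% of genes were at least 4-fold higher and 12.3% at least 4-fold lower, and among genes with a rat symbol 24.3% and 12.4%. The remaining 40 genes changed between 2-fold and 4-fold. Csnk2a1 (2.01-fold) and Strada (2.02-fold) lay closest to the authors' limit. Under a stricter demand, that the inner bound of the interval reach 2-fold, 16 genes were higher and 14 lower. The same demand was met by 41.7% and 23.7% of the table, and by 41.6% and 25.8% of genes with a rat symbol.

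Scaling matters for the higher genes. Factors from TMM and from median-of-ratios, both computed on genes selected for change, shifted every log2 ratio by -0.78 and -1.20. Under TMM 28 genes stood above no change (56%, against 63.5% of the table), and 8 were called higher (16%, against 31.6% of the table). Under median-of-ratios 18 stood above it (36%, against 52.2% of the table), and 4 were called higher (8%, against 22% of the table). The 22 lower genes were called lower under both, as were all 849 lower genes of the table. Both shifts are downward, so no lower call could be lost, and this does not test the lower genes. The higher genes that turned under median-of-ratios were Adck1, Cask, Csnk2a1, Dcakd, Dgka, Jak2, Pik3r2, Prkar1a, Ptk2b and Strada, each at 2.01-fold to 2.26-fold by library totals.

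**Figure D1:**
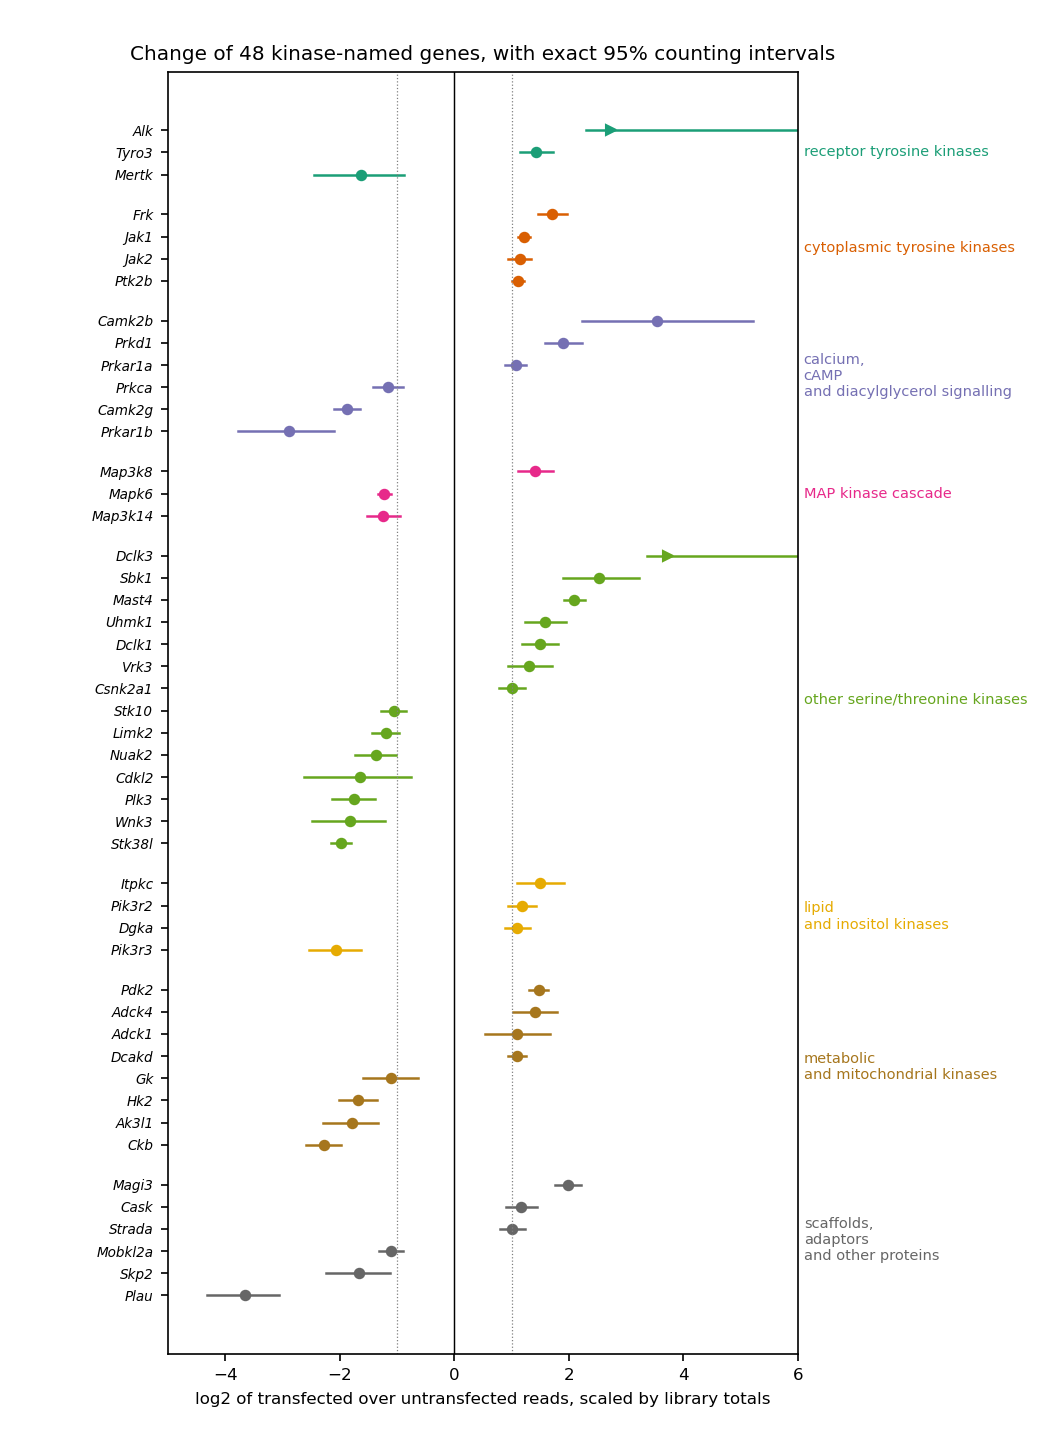
Log2 of transfected over untransfected reads, scaled by library totals, for 48 of the 50 genes grouped by role; lines are exact 95% counting intervals, triangles are ratios to an assumed floor of 3 reads for genes with 0 untransfected reads, dotted lines mark 2-fold. The 4 cytoplasmic tyrosine kinases all lie to the right by this scaling. Under median-of-ratios Jak2 and Ptk2b turn and Jak1 falls to 0.017. Every other role holds genes on both sides, from Dclk3 at 3.74 to Plau at -3.66.

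Levels per length were low to moderate. Only 8 of the 50 genes exceeded 50 RPKM in a library, and 15 stayed below 10 RPKM in both. The highest level in transfected cells was that of Dcakd at 80.8 RPKM, followed by Jak1 at 74.7 RPKM. In untransfected cells Stk38l led at 79.3 RPKM, followed by Mapk6 at 66.0 RPKM. The 50 genes held 0.211% of untransfected and 0.252% of transfected reads.

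**Figure D2:**
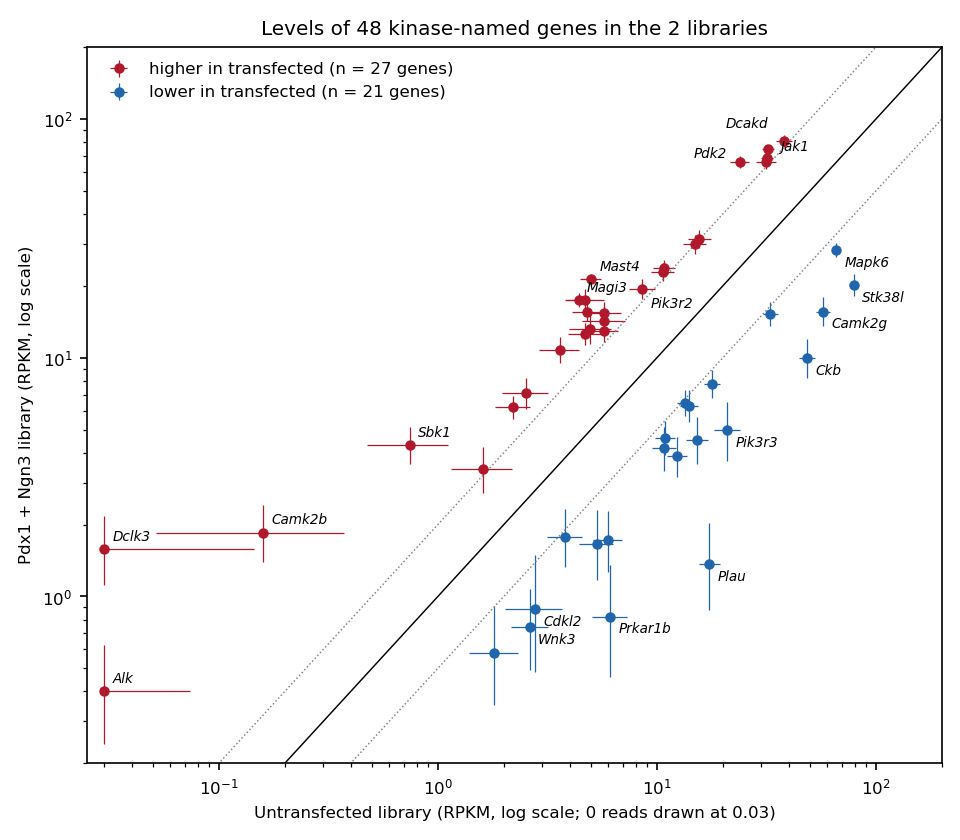
Level of each of 48 genes in RPKM in the untransfected (x) and the Pdx1 + Ngn3 library (y), both on log scales, with exact 95% Poisson intervals; the solid line marks equal levels and dotted lines 2-fold. Genes with 0 untransfected reads are drawn at the left edge, and the 4 largest increases (Dclk3, Alk, Camk2b, Sbk1) are in genes below 5 RPKM in both libraries; the largest decrease, Plau, went from 17.3 to 1.37 RPKM.

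Receptor tyrosine kinases among the 50 were Alk, Tyro3 and Mertk. Alk, a receptor of the developing nervous system, had 0 untransfected and 19 transfected reads. By the lower limit of its exact interval Alk was at least 4.91-fold higher, and against an assumed floor of 3 reads the ratio was 6.66, at a transfected level of 0.402 RPKM. Tyro3 and Mertk are related receptors that bind Gas6 and protein S and take part in the clearance of dying cells. Tyro3 had 136 and 348 reads, or 4.68 and 12.6 RPKM, and was 2.69-fold higher (interval 2.20 to 3.31). Mertk had 62 and 19 reads and was 3.10-fold lower (1.83 to 5.49). The 2 receptors thus lay on opposite sides. Axl, the remaining member of that receptor trio and outside the 50 by its name, had 4785 and 2054 reads and was 2.21-fold lower at 230.0 and 103.9 RPKM. Its level was above those of Tyro3 and Mertk in both libraries.

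All 4 cytoplasmic tyrosine kinases were higher by library totals. Under median-of-ratios Jak2 and Ptk2b turned, Jak1 stood near no change at a log2 ratio of 0.017, and Frk stood at 0.51. Under TMM none of the 4 reached 2-fold, with log2 ratios of 0.93 for Frk, 0.44 for Jak1, 0.36 for Jak2 and 0.33 for Ptk2b. Frk, a Src-related kinase, had 171 and 531 reads and was 3.27-fold higher (2.74 to 3.90). Jak1 and Jak2 pass signals from cytokine receptors to STAT transcription factors. Jak1 had 1075 and 2378 reads, with levels of 32.1 and 74.7 RPKM, and was 2.33-fold higher (2.16 to 2.50). Jak2 had 314 and 657 reads and was 2.20-fold higher (1.92 to 2.53). Ptk2b, a calcium-responsive relative of focal adhesion kinase, had 1002 and 2055 reads and was 2.16-fold higher (2.0 to 2.33). These are changes of similar size, with overlapping intervals for Jak1, Jak2 and Ptk2b. Tnk2, a further cytoplasmic tyrosine kinase that the rule leaves out because its name holds "non-receptor", went the other way, with 458 and 154 reads (2.83-fold lower). Of the Jak feedback inhibitors, Socs3 had 7 and 70 reads (10.5-fold higher) and Socs2 had 5 and 64 reads (13.5-fold higher). Tnk2, Socs2 and Socs3 were named after their values were seen.

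Genes of calcium, cyclic AMP and diacylglycerol signalling were divided, 3 higher and 3 lower. Among them Prkar1a (higher) and Prkar1b (lower) are regulatory subunits, not kinases. Camk2b and Camk2g encode forms of calcium/calmodulin-dependent kinase II, the first best known from neurons and the second broadly expressed. Camk2b had 5 untransfected and 55 transfected reads and was 11.6-fold higher (4.67 to 37.0). Camk2g had 771 and 200 reads and was 3.66-fold lower (3.13 to 4.30). Even so, Camk2g remained the more abundant form per length in transfected cells, at 15.6 RPKM against 1.85 RPKM for Camk2b.

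Prkd1, protein kinase D1, which acts in vesicle release from the Golgi, had 101 and 358 reads and was 3.73-fold higher (2.98 to 4.70). Prkca, the calcium- and diacylglycerol-dependent protein kinase C alpha, had 405 and 173 reads and was 2.23-fold lower (1.86 to 2.67). These kinases share the lipid signal diacylglycerol but changed in opposite directions.

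Protein kinase A is held inactive by regulatory subunits until cyclic AMP binds them. Prkar1a, the widespread type I subunit, had 380 and 759 reads and was 2.10-fold higher (1.86 to 2.38); this turned under median-of-ratios. Prkar1b, its paralog known mainly from neurons, had 117 and 15 reads and was 7.41-fold lower (4.32 to 13.7). Other parts of this enzyme system that the naming rule leaves out were also listed. Pkig, a peptide inhibitor of protein kinase A, had 332 and 1523 reads (4.83-fold higher), and Pkia, a second such inhibitor, had 4 and 75 reads (19.7-fold higher, interval 7.39 to 74.3). Akap12, an anchor that places protein kinase A near the membrane, had 8262 and 1028 reads and was 7.64-fold lower (7.16 to 8.16). Thus 2 inhibitors and a regulatory subunit were higher, and an anchor and the other regulatory subunit lower. Pkia was named after its values were seen.

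The MAP kinase cascade had 3 genes among the 50. Map3k8, known as Tpl2, which activates the ERK branch in inflammatory signalling, had 122 and 309 reads and was 2.66-fold higher (2.15 to 3.31). Map3k14, the NF-kappaB-inducing kinase, had 358 and 144 reads and was 2.36-fold lower (1.94 to 2.89). Mapk6, the atypical kinase ERK3, had 2158 and 878 reads and was 2.34-fold lower (2.16 to 2.53). Mapk6 was the most abundant of the 3 per length in both libraries, at 66.0 and 28.2 RPKM.

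Phosphoinositide 3-kinase consists of a catalytic and a regulatory subunit, and of the 50 genes only regulatory subunits belonged to it. Pik3r2, the p85 beta subunit, had 210 and 451 reads and was 2.26-fold higher (1.91 to 2.67), which turned under median-of-ratios. Pik3r3, the shorter p55 gamma subunit, had 226 and 51 reads and was 4.21-fold lower (3.10 to 5.83). Dgka, which removes diacylglycerol by turning it into phosphatidic acid, had 252 and 514 reads and was 2.15-fold higher (1.84 to 2.50), with the same reversal. Itpkc, an inositol trisphosphate kinase that ends calcium release signals, had 70 and 187 reads and was 2.81-fold higher (2.12 to 3.75). Sphk1, sphingosine kinase 1, outside the 50 by its defence annotation and named after its values were seen, had 187 and 38 reads and was 4.68-fold lower.

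In 4 pairs, paralogs with the same symbol stem were listed in opposite directions: Camk2b and Camk2g, Prkar1a and Prkar1b, Pik3r2 and Pik3r3, and Map3k8 and Map3k14. The change in the ratio of one paralog to the other does not depend on how libraries are scaled. That ratio changed 42.2-fold in favour of Camk2b over Camk2g (exact conditional interval 16.7 to 137), 15.5-fold for Prkar1a over Prkar1b (8.90 to 29.1), 9.49-fold for Pik3r2 over Pik3r3 (6.67 to 13.7) and 6.28-fold for Map3k8 over Map3k14 (4.69 to 8.46). Because the pairs were picked for opposite directions, these values describe them and test nothing. An unequal change also does not show that either gene was constant.

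The order of levels turned in 2 of the 4 pairs. Pik3r3 made up 70.9% of the summed RPKM of its pair in untransfected cells and 20.4% in transfected cells. Map3k14 went from 65.5% to 23.2% of its pair. Camk2b went from 0.279% to 10.6% and stayed the minor form, and Prkar1a went from 83.8% to 98.8% and stayed the major one. The summed level of a pair was 57.4 and 17.5 RPKM for Camk2, 37.7 and 67.1 RPKM for Prkar1, 29.5 and 24.4 RPKM for Pik3r, and 16.7 and 19.9 RPKM for Map3k. The hexokinases were also listed in opposite directions. Hk1, outside the 50, was 2.23-fold higher (turning under median-of-ratios) and Hk2, among the 50, 3.20-fold lower, so that Hk2 went from 42.7% to 9.46% of their sum.

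**Figure D3:**
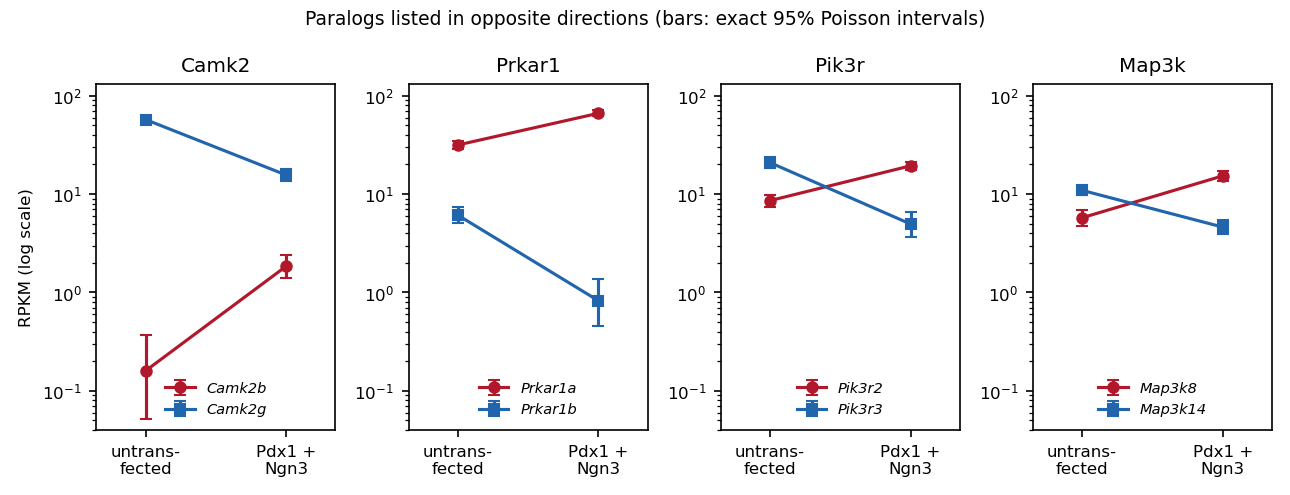
Level in RPKM (log scale) of the paralogs in each of 4 pairs in the untransfected and the Pdx1 + Ngn3 library, 1 library each, with exact 95% Poisson intervals. The lines cross for Pik3r2 (8.58 to 19.4 RPKM) and Pik3r3 (20.9 to 4.96 RPKM) and for Map3k8 and Map3k14, and do not cross for Camk2 and Prkar1; by median-of-ratios Pik3r2 and Prkar1a turn slightly below no change.

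The promoters of the pairs whose order turned are shown because they let the paralogs be compared at the sequence level. Each is the 250 bases before the RefSeq start of the gene on assembly GRCr8, on the strand of the gene. Capitals mark matches, on either strand, to any of 7 motifs. These were the GC box with the letters GGGCGG, the CCAAT box, the TATA box spelled TATAAA, an E-box of the kind bound by neurogenins with the letters CAGATG, the homeodomain core TAATTA, the cyclic AMP element spelled TGACGTCA and the AP-1 site TGANTCA, in which N is any base. Overlapping matches count separately. Pik3r2 lies at chr16:18699247-18699496 (+), Pik3r3 at chr5:134938356-134938605 (+), Map3k8 at chr17:58077925-58078174 (+) and Map3k14 at chr10:88715593-88715842 (-).
Pik3r2: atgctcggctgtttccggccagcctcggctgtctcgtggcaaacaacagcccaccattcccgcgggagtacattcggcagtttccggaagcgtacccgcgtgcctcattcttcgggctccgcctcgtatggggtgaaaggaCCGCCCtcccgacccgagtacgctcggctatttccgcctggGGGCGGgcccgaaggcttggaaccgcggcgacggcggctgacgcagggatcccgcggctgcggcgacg
Pik3r3: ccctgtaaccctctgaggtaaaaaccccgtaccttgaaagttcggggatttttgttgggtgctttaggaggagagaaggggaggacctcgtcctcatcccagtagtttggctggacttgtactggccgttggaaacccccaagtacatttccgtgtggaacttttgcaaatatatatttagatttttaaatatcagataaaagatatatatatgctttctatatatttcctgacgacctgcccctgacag
Map3k8: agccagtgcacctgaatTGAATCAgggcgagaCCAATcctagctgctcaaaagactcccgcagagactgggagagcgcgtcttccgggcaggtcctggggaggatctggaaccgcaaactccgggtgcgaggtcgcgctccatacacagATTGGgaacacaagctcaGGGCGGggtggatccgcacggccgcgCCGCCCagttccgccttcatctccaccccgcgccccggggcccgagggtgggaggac
Map3k14: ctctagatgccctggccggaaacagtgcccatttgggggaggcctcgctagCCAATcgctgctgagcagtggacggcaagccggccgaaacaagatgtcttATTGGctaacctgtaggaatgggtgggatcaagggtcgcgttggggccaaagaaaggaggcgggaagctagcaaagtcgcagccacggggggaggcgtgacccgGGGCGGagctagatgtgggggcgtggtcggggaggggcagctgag

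The Pik3r2 promoter held 2 GC boxes, 33 CpG dinucleotides and 68% G and C. The window before the annotated start of Pik3r3 held none of the 7 motifs, 6 CpG dinucleotides and 43.2% G and C. The deposited length was 1386 bases for Pik3r3 and 3137 bases for Pik3r2. Whether the annotated start of Pik3r3 is where transcription begins was not tested. The contrast between these paralogs therefore describes the annotated windows only. Both Map3k promoters held 2 CCAAT boxes, with 2 GC boxes and an AP-1 match in Map3k8 and 1 GC box in Map3k14. A RefSeq promoter was matched for 44 of the 50 genes. Among those without one were Jak1, Mast4, Ptk2b and Sbk1.

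Among those 44, the GC box was found in 35 (79.5%), in 19 of 23 higher and 16 of 21 lower genes. It was in 60.3% of the 1286 matched promoters of listed genes and in 32.4% of all 27457 promoters. Median G and C was likewise above that of listed genes and of all promoters, but not greater in the higher than in the lower genes. It was 64.8% in higher and 67.6% in lower genes of the 44, 61.2% over listed genes and 52% over all promoters. The E-box CAGATG occurred in 4 of 44, in Alk, Csnk2a1, Dclk1 and Prkar1b, against 10.3% of listed and 13.7% of all promoters. TAATTA was in Uhmk1 alone (2.27% of the 44, 1.87% of listed and 4.94% of all promoters). The cyclic AMP element was in Stk38l alone (2.27% of the 44, 3.34% of listed and 1.70% of all promoters). AP-1 matches were in 3 genes, Dclk1, Map3k8 and Tyro3, all of them higher (5.21% of listed and 6.36% of all promoters). TATA boxes were in Ckb and Nuak2, both lower (8.32% of listed and 13.1% of all promoters), and CCAAT boxes in 15 of 44 (32.2% of listed and 34.3% of all promoters). A match is a description of the letters in this window, not a binding site. The reads carry no information on which start site was used.

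Serine/threonine kinases outside these pathways numbered 15, of which 8 were higher and 7 lower, with Csnk2a1 turning under median-of-ratios. Dclk3, a doublecortin-like kinase, had 0 and 38 reads. By the lower limit of its exact interval it was at least 10.3-fold higher, and against the floor of 3 reads the ratio was 13.3. Its relative Dclk1, which binds microtubules in growing neurons, had 119 and 318 reads and was 2.81-fold higher (2.27 to 3.50). Dclk3 stayed below 2 RPKM in both libraries, so its change is at the bottom of the measured range.

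Mast4, a microtubule-associated kinase, rested on far more reads, 310 and 1256, and was 4.26-fold higher (3.76 to 4.84) at 4.99 and 21.3 RPKM. Sbk1, an SH3-binding kinase, had 24 and 132 reads and was 5.79-fold higher (3.73 to 9.35). Uhmk1, which phosphorylates splicing factors and stathmin, had 91 and 260 reads and was 3.01-fold higher (2.36 to 3.86). Vrk3, a pseudokinase, had 81 and 191 reads (2.48-fold higher), and Csnk2a1, the catalytic subunit of casein kinase 2, had 253 and 483 reads. The last is the smallest change among the 50.

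Of the 7 lower genes in this group, Stk38l had the most reads. Stk38l, or NDR2, a relative of the Hippo pathway kinases, had 1489 and 359 reads and was 3.94-fold lower (3.51 to 4.44) at 79.3 and 20.1 RPKM. Mobkl2a, now Mob3a, belongs to the Mob proteins, a family that includes activators of such kinases. It had 646 and 285 reads and was 2.15-fold lower (1.87 to 2.49). Both were thus lower, Stk38l by more. Whether Mobkl2a acts on Stk38l was not tested.

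From a list of 78 serine/threonine kinases drawn up under the heading cytoskeletal, 6 were found among the genes kept by the naming rule. The heading is broad, and takes in Csnk2a1, of casein kinase 2, and Wnk3, which regulates ion cotransport. Deposited genes that the rule leaves out were not counted. Csnk2a1 and Sbk1 were higher, Csnk2a1 turning under median-of-ratios, and Limk2, Nuak2, Stk10 and Wnk3 were lower. The microtubule kinases Mast4 and Dclk1, both higher, are not on this list, so the split depends on how it was drawn up. Limk2 inactivates the actin-severing protein cofilin, and had 532 and 220 reads (2.30-fold lower, 1.96 to 2.70). Nuak2, an AMPK-related kinase that acts through myosin phosphatase, had 244 and 90 reads (2.58-fold lower, 2.02 to 3.32). Stk10, which phosphorylates the membrane-to-actin linkers of the ezrin family, had 542 and 247 reads (2.09-fold lower, 1.79 to 2.43). The contractile kinase Mylk, left out by symbol and named after its values were seen, had 847 and 37 reads. All 6 markers of smooth muscle and pericytes were listed, 5 lower and Rgs5 higher. The marker levels summed to 12176 RPKM in the untransfected and 3587 RPKM in the transfected library. Whether they have a part in the changes of these kinases, which went both ways, was not tested.

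Plk3, a polo-like kinase of stress responses, had 284 and 80 reads and was 3.37-fold lower (2.62 to 4.38). Wnk3, which regulates ion cotransport, had 104 and 28 reads and was 3.53-fold lower (2.31 to 5.57). Cdkl2, a relative of cyclin-dependent kinases, had 46 and 14 reads (3.12-fold lower, 1.69 to 6.15). Skp2, the ubiquitin ligase subunit that removes the cell cycle inhibitor p27, had 124 and 37 reads and was 3.19-fold lower (2.19 to 4.73). From 42 mitotic and cell cycle kinases and partners, Cdkl2 was the one found among the 50.

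Metabolic and mitochondrial kinases were divided, 4 higher and 5 lower by library totals; median-of-ratios turned Dcakd and Adck1. Pdk2, which switches off pyruvate dehydrogenase and so the entry of pyruvate into the citric acid cycle, had 410 and 1079 reads and was 2.77-fold higher (2.47 to 3.11) at 23.8 and 65.9 RPKM. Adck4, now Coq8b, needed for coenzyme Q, had 83 and 209 reads (2.65-fold higher), and its relative Adck1 had 41 and 83 reads (2.13-fold higher, 1.45 to 3.18). Dcakd, a protein with a dephospho-coenzyme A kinase domain, had 515 and 1040 reads (2.12-fold higher, 1.91 to 2.37).

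The lower metabolic kinases handle glucose, glycerol, creatine and adenine nucleotides. Ckb, brain-type creatine kinase, which buffers ATP through phosphocreatine, had 566 and 111 reads and was 4.85-fold lower (3.95 to 6.0) at 48.4 and 9.98 RPKM. Adenylate kinases interconvert AMP, ADP and ATP. Ak3l1, now Ak4, the form of the mitochondrial matrix, had 175 and 48 reads (3.47-fold lower, 2.51 to 4.87). Hk2, the hexokinase that phosphorylates glucose on entry, had 350 and 104 reads (3.20-fold lower, 2.56 to 4.02). Gk, glycerol kinase, had 122 and 54 reads (2.15-fold lower, 1.55 to 3.02).

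Magi3 and Cask, the scaffolds with a guanylate kinase domain kept by the naming rule, were higher, with Cask turning under median-of-ratios. Such scaffolds that the rule leaves out were not counted, so this does not describe the family. By library totals 63.5% of the table was called higher. Magi3, a scaffold of cell junctions, had 203 and 766 reads and was 3.97-fold higher (3.40 to 4.66). Cask, a scaffold of synapses and epithelia, had 171 and 365 reads and was 2.25-fold higher (1.87 to 2.71). Strada, the pseudokinase that activates the tumour suppressor kinase LKB1, had 260 and 498 reads, and its change turned likewise.

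The largest decrease among the 50 was in Plau, which is no kinase. Plau had 320 and 24 reads, or 17.3 and 1.37 RPKM, and was 12.7-fold lower (8.37 to 20.1). Its receptor Plaur had 779 and 199 reads and was 3.72-fold lower (3.18 to 4.37). With the 9 genes counted as other proteins left out, a choice made after the values were seen, 24 of 41 were higher and 17 lower, and the largest decrease was that of Ckb. The deposited function annotation divides the genes otherwise for Adck4, Magi3 and Strada. The term adenyl ribonucleotide binding was carried by 42 of the 50 genes and by 8.89% of listed genes with a rat symbol. The genes without it were Adck4, Mobkl2a, Pik3r2, Pik3r3, Plau, Prkar1a, Prkar1b and Skp2.

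Enzymes and regulators that work with or against kinases also went both ways. From 77 phosphatases and phosphatase regulators, 13 were listed, 7 higher (53.8%, against 63.5% of the table) and 6 lower by library totals. By median-of-ratios 4 stood above no change, as did 52.2% of the table. These counts include an inhibitor and regulatory subunits, so they do not describe phosphatase enzymes alone. Ppp1r14a, an inhibitor of myosin phosphatase, had 122 and 341 reads (2.94-fold higher). Dusp3, a dual specificity phosphatase, had 958 and 1988 reads (2.18-fold higher, turning under median-of-ratios), and Ppap2b, a lipid phosphate phosphatase, had 600 and 1428 reads (2.50-fold higher). The median log2 ratio of the 13 was 1.09, against 1.24 over all listed genes.

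From 59 inhibitors, anchors and feedback regulators, 16 were listed, 9 higher (56.25%, against 63.5% of the table) and 7 lower. The split was the same under median-of-ratios, where 52.2% of the table stood above no change. The genes with the highest mean level were Pkig and Akap12, given above, and Gadd45a, a stress protein that binds cell cycle kinases, which had 715 and 152 reads and was 4.47-fold lower. From a list of 60 receptor kinases, 18 were deposited, 8 higher (44.4%, against 63.5% of the table) and 10 lower, Tyro3 and Mertk among them. Alk, given above, and Ltk, a receptor tyrosine kinase, are not on this list, and both were higher. Ltk had 14 and 70 reads (5.26-fold higher) and was named after its values were seen. The split thus depends on how the list was drawn up. Among the 18, the highest levels were those of Axl, of Tgfbr2 (44.9 and 109 RPKM, 2.43-fold higher) and of Pdgfra (25.1 and 64.7 RPKM, 2.58-fold higher). Tgfbr2 is a serine/threonine kinase receptor for TGF-beta and Pdgfra a platelet-derived growth factor receptor.

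From 37 immediate early and growth factor response genes, which kinase cascades are known to induce, 13 were listed. Of these 5 were higher (38.5%, against 63.5% of the table) and 8 lower. By median-of-ratios 4 stood above no change, as did 52.2% of the table. By mean level the first were Ctgf (22784 and 7138 reads, 3.03-fold lower), Plaur, and Hbegf, a ligand of the EGF receptor (653 and 197 reads, 3.15-fold lower). Within this list Egr1 had 178 and 1159 reads (6.85-fold higher) and Fos 18 and 94 reads (5.49-fold higher), whereas Fosl1 had 315 and 91 reads (3.29-fold lower) and Myc 173 and 62 reads (2.65-fold lower). The last 4 were named after their values were seen.

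**Figure D4:**
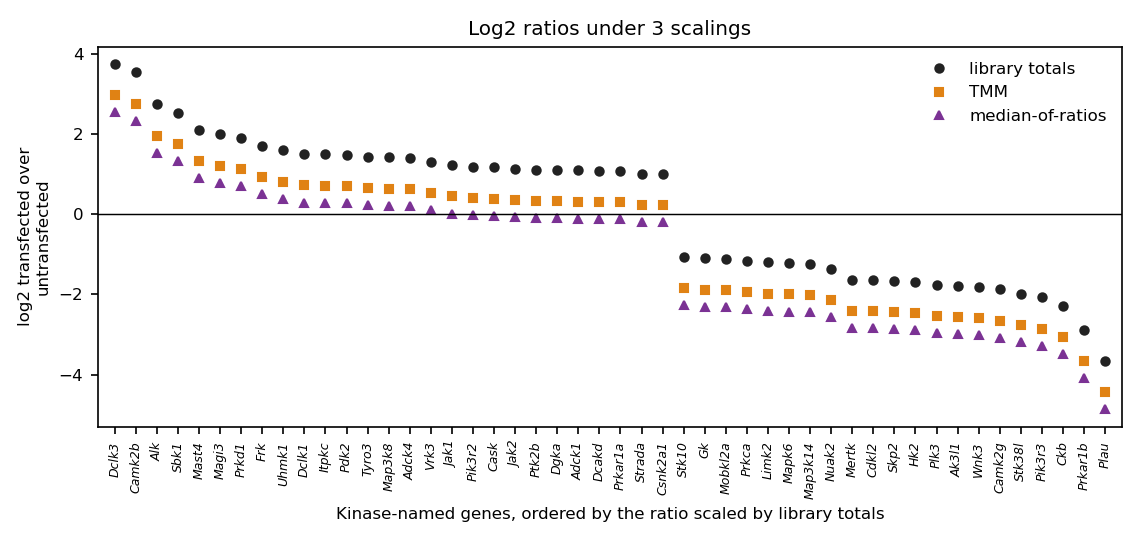
Log2 ratio of 48 of the 50 genes under scaling by library totals, TMM and median-of-ratios (1 library per group). Each alternative moves all genes down by the same amount, -0.78 and -1.20, so that 10 of the 27 higher genes drawn end below 0 under median-of-ratios while the 21 lower genes drawn stay below 0 under all 3.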

How the data were processed

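The data were 1 library per group. Genome build rn4 is named in the submitters' processing notes. How reads were aligned and counted, and how those shared by paralogs were assigned, was not given in the sources used here. The authors deposited read counts per gene and RPKM computed from them, with 0.001 RPKM written for 0 reads, and per the file headers the log2 ratio of RPKM with its p-value and false discovery rate. The deposited p-values compare 2 libraries, not conditions, and were not used.

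Here ratios of counts divided by implied library totals were given exact 95% Clopper-Pearson intervals, and levels exact Poisson intervals (Python 3.11.15, scipy 1.17.1); the code was tested on simulated data. Where a library had 0 reads, 3 were assumed. Scaling factors came from edgeR 4.0.16 (TMM) and DESeq2 1.42.0 (median-of-ratios). With 1 library per group no test was made. The members and the lists were chosen with earlier results of these data known, and the role groups, paralog pairs outside the naming rule and motifs after the values were seen. Of the 50 genes 2 stay in every count but are not reported here by name, in value or in figures. Apart from these, full values were given to the 10 genes per direction with the largest interval bound, the 2 most abundant of each family list and paralogs listed in opposite directions; from each further list the 3 most abundant genes were named. Of the 50 identifiers 49 matched RefSeq (GRCr8), 4 under another symbol, and deposited symbols are used. The length of Dclk1 differs from that in its description.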

Additional observations from a re-analysis of the deposited data

How the results depend on the processing

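Among the 50 kinase-named genes, the count called higher was 28 by library totals (56%, against 63.5% of the table), 8 under TMM (16%, against 31.6%), 4 under median-of-ratios (8%, against 22%) and 16 where the interval bound had to reach 2-fold, and the count called lower was 22 and 14 under that last demand. The number of genes above no change was 18 under median-of-ratios (36%, against 52.2% of the table). The median log2 ratio of the 50 was 1.08, 0.30 under TMM and -0.12 under median-of-ratios. The phosphatase list had 4 in place of 7 genes above no change under median-of-ratios. Genes that turned under median-of-ratios had log2 ratios of -0.11 (Adck1), -0.034 (Cask), -0.20 (Csnk2a1), -0.11 (Dcakd), -0.10 (Dgka), -0.063 (Jak2), -0.026 (Pik3r2), -0.13 (Prkar1a), -0.092 (Ptk2b) and -0.19 (Strada), which follows from the common shift. No gene turned under column sums, TMM or log2(RPKM + 1). Column sums left 20 genes called lower (739 in place of 849 in the table) and 28 called higher. By log2(RPKM + 1), without intervals, 23 genes were at least 2-fold higher and 18 at least 2-fold lower. The share of the table was not computed for that setting. A filter of 30 reads, the addition of the 5 genes left out by symbol or of names with receptor, inhibitor or anchor, and the removal of the 9 genes counted as other proteins kept both counts within 1.5 times. The restriction to proteins with the HRD and DFG motifs was not run, because no protein sequences were used here. No replicate could be left out, and no paired analysis was possible because each group has 1 library. Counts limit Alk, Dclk3 and Camk2b most, each with at most 5 untransfected reads.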
